A study of Mus musculus with 12 samples.

Results

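Cytotoxic granule genes encode the proteins with which killer lymphocytes destroy other cells, and 9 of them were followed here in CD4+ T cells: the granzyme genes Gzma, Gzmb, Gzmk and Gzmm, the perforin gene Prf1, and Nkg7, Fasl, Ctsw and Srgn. They were chosen by name, for what their products are known to do, out of 17523 genes in the table of normalized counts. No threshold on their values was used, but earlier results of these data were known when the choice was made. All 9 passed the filter on low values, which kept the 15587 genes that reached 5 normalized counts in 3 or more libraries. The study examined T cells that make or have made the cytokine GM-CSF, using Gr/fr mice on the C57BL/6 background. The Gr allele is a Csf2 (GM-CSF) transgene that also carries the recombinase iCre and the blue fluorescent protein BFP, and the fr allele is Rosa26eYFP, a YFP gene that stays off until Cre acts. A YFP+ cell therefore expresses GM-CSF or did so earlier in its life, or descends from a cell that did, while a YFP- cell carries the same alleles without a record of it. From the spleens of naive mice, CD4+ cells were sorted by surface markers, CD44 among them, as naive or effector memory (TEM) and as YFP+ or YFP-, and total RNA was sequenced. This gave 4 groups of 3 libraries: YFP- naive, YFP+ naive, YFP- TEM and YFP+ TEM. The mice had no treatment, the methods give an age of 2 to 3 months for sorted CD4+ cells in general, the sex is not given for these libraries in the sources used here, and the groups differ in what the cells were sorted on. The methods give n = 3, but the labels do not tie a replicate number to an animal, so p-values measure the spread between these libraries, which may in part be technical.

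Killer lymphocytes store perforin and granzymes in secretory granules, bound to the proteoglycan serglycin, and release them where they touch a target. Perforin opens the target's membrane, granzymes enter and cleave proteins inside, and the cell dies. Fas ligand kills by a separate route, through the death receptor Fas on the target. These molecules are known best from CD8+ T cells and NK cells, and CD4+ cells with cytotoxic granules arise mostly among antigen-experienced cells.

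Between 40974124 and 57822269 reads lay on genes in each library, with group medians of 42976572 in YFP- naive, 46070449 in YFP+ naive, 53008149 in YFP- TEM and 45835878 in YFP+ TEM cells. Values below are normalized counts, that is, reads over the size factor of their library, and group values are mean ± SD (n = 3 libraries). The sort was visible in its own markers: Cd44 had 2831 ± 382 normalized counts in YFP- naive and 22014 ± 363 in YFP- TEM cells, and 2940 ± 541 and 26861 ± 2268 in the YFP+ groups. Cd4 had at least 36078 normalized counts in every library. The 9 members together took from 0.024 to 0.0312% of the reads of a naive library and from 0.0551 to 0.096% of the reads of a TEM library, and Srgn alone held 57.9 to 84.5% of these reads. Because each library pools many cells, fewer cells that express a gene and less RNA per cell cannot be told apart.

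Prf1 (Entrez 18646, chromosome 10, 61297751 to 61304684) encodes perforin, the pore-forming protein of the granule. It had 4030, 2677 and 3532 normalized counts in YFP- naive replicates 1, 2 and 3, and 4279, 2632 and 3483 in the YFP+ naive libraries. In TEM cells it had 169, 185 and 175 normalized counts in the YFP- libraries and 2110, 834 and 1801 in the YFP+ libraries. The naive libraries of both fractions were the highest and lay in the same range, the YFP+ TEM libraries lay below them, and the YFP- TEM libraries lay below all others, with no overlap between these 3 levels. Prf1 was the only member whose level was lower in TEM than in naive cells in both fractions with a call. The log2 fold change of TEM against naive cells was -4.25 (SE 0.29, limma, adjusted p = 1.97e-07) in the YFP- fraction and -1.21 (SE 0.29, limma, adjusted p = 0.00511) in the YFP+ fraction. Between the TEM fractions Prf1 was higher in YFP+ cells by a log2 fold change of 3.05 (SE 0.29, limma, adjusted p = 0.000125). All 3 calls held under each of the 17 alternative settings tried for them.

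The granzymes are serine proteases delivered through perforin pores. Gzmb (Entrez 14939, chromosome 14, 56258836 to 56262334), which cleaves after aspartate and triggers caspases, had 5.76, 17.0 and 23.0 normalized counts in the YFP- naive libraries and 1.24, 17.7 and 4.65 in the YFP+ naive libraries. It had 468, 500 and 329 in the YFP- TEM libraries and 505, 419 and 520 in the YFP+ TEM libraries. Every TEM library was above every naive library, and the YFP+ and YFP- TEM libraries overlapped. Gzmb rose with memory by a log2 fold change of 4.90 (SE 0.65, limma, adjusted p = 4.65e-05) in YFP- cells and of 6.28 (SE 0.65, limma, adjusted p = 8.35e-06) in YFP+ cells. Over the settings tried it ranged from 3.78 to 5.27 in YFP- and from 5.45 to 7.08 in YFP+ cells.

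Gzmk (Entrez 14945, chromosome 13, 113171630 to 113180965), a granzyme of the tryptase kind, had 4.61, 28.6 and 11.5 normalized counts in the YFP- naive libraries and 6.18, 26.6 and 6.51 in the YFP+ naive libraries. In TEM cells it had 631, 1138 and 551 in the YFP- libraries and 553, 1493 and 393 in the YFP+ libraries. Replicate 2 was the highest library of each of the 4 groups, and again the TEM libraries lay above all naive ones while the YFP+ and YFP- TEM libraries overlapped. The log2 fold change with memory was 5.85 (SE 0.69, limma, adjusted p = 1.67e-05) in YFP- cells and 5.91 (SE 0.69, limma, adjusted p = 2.17e-05) in YFP+ cells. Alternative settings gave 4.889 to 6.455 in YFP- and 5.34 to 6.55 in YFP+ cells.

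Gzma and Gzmm stayed low. Gzma (Entrez 14938, chromosome 13, 113093824 to 113100981), the other granzyme of the tryptase kind, overlaps Cdc20b, which was not analysed here, and reads of overlapping genes cannot be assigned with certainty because the strand setting of the counting is not given in the sources used here. It had 0, 12.7 and 8.06 normalized counts in the YFP- naive libraries, 8.66, 41.3 and 0.93 in the YFP+ naive libraries, 23.0, 51.9 and 16.3 in the YFP- TEM libraries and 46.5, 40.4 and 52.3 in the YFP+ TEM libraries. The YFP- TEM libraries lay above the YFP- naive ones, while in the YFP+ fraction naive replicate 2 overlapped the TEM libraries. Neither memory difference passed the threshold, with log2 fold changes of 2.49 (SE 1.09, limma, adjusted p = 0.0757) in YFP- cells and 2.35 (SE 1.09, limma, adjusted p = 0.104) in YFP+ cells. Over the settings tried these log2 values ranged from 0.9766 to 3.625 and from 1.221 to 3.449. The difference in YFP- cells had an adjusted p of 0.0418 in limma without YFP- naive replicate 2 (log2 3.217), 0.0482 in a fit of the 6 libraries compared and 0.0428 with the replicate number as a block, with 0.0418 to 0.379 as the range of the settings tried. That in YFP+ cells had 0.0179 without YFP+ naive replicate 2 (log2 3.449), in a range from 0.0179 to 0.388. That naive library also held the highest summed level of myeloid markers among the naive libraries, 3432 normalized counts, against 388 to 987 in the others, and the highest of B cell markers, 1450 against 440 to 1038. The sum of the 4 analysed NK cell markers was highest there too, 23.6 against 1.15 to 10.6. Ncr1 (3.94 in that library) and Klre1 (6.89) were at 0 in the other naive libraries. The part of such cells in the Gzma value of YFP+ naive replicate 2 was not tested.

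Gzmm (Entrez 16904, chromosome 10, 79689020 to 79695261), a granzyme that cleaves after methionine or leucine, had from 34.0 to 55.3 normalized counts in YFP- naive, 50.2 to 77.9 in YFP+ naive, 50.9 to 93.5 in YFP- TEM and 73.2 to 89.0 in YFP+ TEM libraries. Neighbouring groups overlapped, and no comparison passed the threshold. The memory difference in YFP- cells had a log2 value of 0.67 (SE 0.31, limma, adjusted p = 0.0919). It had an adjusted p of 0.0498 without YFP- TEM replicate 3, in a range from 0.0498 to 0.299, and its sign turned to -0.73 under quantile normalization, as did that in YFP+ cells, from 0.35 to -0.55. Quantile normalization also shifted the median of all tested genes by -0.25 and -0.17 on the log2 scale in these comparisons.

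Nkg7 (Entrez 72310, chromosome 7, 43437138 to 43438246) encodes a granule membrane protein that promotes granule release. It had 17.3, 41.4 and 15.0 normalized counts in the YFP- naive libraries and 18.6, 48.2 and 8.37 in the YFP+ naive libraries, against 1776, 2354 and 1502 in the YFP- TEM libraries and 6925, 3794 and 6096 in the YFP+ TEM libraries. The naive libraries were at the bottom, the YFP- TEM libraries in the middle and the YFP+ TEM libraries at the top, without overlap between these levels. The log2 fold change with memory was 6.32 (SE 0.52, limma, adjusted p = 8.83e-07) in YFP- cells and 8.03 (SE 0.52, limma, adjusted p = 1.67e-07) in YFP+ cells, the largest increase among the members in each fraction. With other settings it lay between 5.536 and 6.755 in YFP- and between 7.452 and 8.649 in YFP+ cells. Between the TEM fractions Nkg7 had a log2 fold change of 1.56 (SE 0.52), which did not pass the threshold (limma, adjusted p = 0.11) although all 3 YFP+ libraries lay above all 3 YFP- libraries. It passed with the replicate number as a block (limma, adjusted p = 0.0446), in a fit of the 6 TEM libraries alone (limma, adjusted p = 0.00536), under quantile normalization (limma, adjusted p = 0.0206) and in edgeR on the recovered reads (adjusted p = 0.0146), with 0.00536 to 0.334 as the range of the settings tried.

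Srgn (Entrez 19073, chromosome 10, 62493833 to 62527445) encodes serglycin, the proteoglycan that holds granzymes and perforin in the granule, and is shared by many blood cells. It overlaps Gm51804, which was not analysed here. It had 9326, 7038 and 6550 normalized counts in the YFP- naive libraries, 10016, 6977 and 6907 in the YFP+ naive libraries, 22419, 28467 and 20346 in the YFP- TEM libraries and 25054, 29692 and 19968 in the YFP+ TEM libraries. The TEM libraries lay above all naive libraries and the fractions overlapped within each cell state. Its log2 fold change with memory was 1.64 (SE 0.19, limma, adjusted p = 1.82e-05) in YFP- cells and 1.65 (SE 0.19, limma, adjusted p = 2.48e-05) in YFP+ cells.

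Ctsw (Entrez 13041, chromosome 19, 5465043 to 5468628) encodes cathepsin W, a papain-like cysteine protease found in cytotoxic lymphocytes. It had 1379, 1556 and 818 normalized counts in the YFP- naive libraries, 1594, 1491 and 1045 in the YFP+ naive libraries, 1074, 1126 and 613 in the YFP- TEM libraries and 4404, 3630 and 3462 in the YFP+ TEM libraries. The YFP+ TEM libraries stood above all others, and the other 3 groups overlapped. Ctsw overlaps Fibp, which had 1687 ± 97.5 normalized counts in YFP- TEM and 1681 ± 298 in YFP+ TEM cells. Against YFP- TEM cells, Ctsw in YFP+ TEM cells was higher by a log2 fold change of 2.07 (SE 0.27, limma, adjusted p = 0.000603). With memory it rose in YFP+ cells by 1.49 on the log2 scale (SE 0.27, limma, adjusted p = 0.000712). In YFP- cells the log2 value was -0.41 (SE 0.27, limma, adjusted p = 0.224), which passed with the replicate number as a block (limma, adjusted p = 0.0209) and without YFP- naive replicate 3 (limma, adjusted p = 0.0434), in a range from 0.0209 to 0.705.

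Fasl (Entrez 14103, chromosome 1, 161780691 to 161788495) encodes Fas ligand, a membrane protein of the TNF family that secretory granules carry to the cell surface. It had 397, 322 and 296 normalized counts in the YFP- naive libraries, 445, 349 and 338 in the YFP+ naive libraries, 598, 491 and 494 in the YFP- TEM libraries and 2828, 1220 and 2036 in the YFP+ TEM libraries. The naive fractions overlapped, the YFP- TEM libraries lay above them, and the YFP+ TEM libraries were higher still, with replicate 2 the lowest of them. Fasl was higher in YFP+ than in YFP- TEM cells by a log2 fold change of 1.86 (SE 0.25, limma, adjusted p = 0.000724) and rose with memory in YFP+ cells by 2.35 (SE 0.25, limma, adjusted p = 1.01e-05). In YFP- cells it rose with memory by 0.65 (SE 0.25, limma, adjusted p = 0.0469), a call close to the threshold. That call was lost in 5 of the 6 fits without 1 library, with adjusted p in limma of 0.105 without YFP- naive replicate 2, 0.137 without YFP- naive replicate 3, 0.14 without YFP- TEM replicate 1, 0.0745 without YFP- TEM replicate 2 and 0.0745 without YFP- TEM replicate 3, and held only without YFP- naive replicate 1 (0.0427). Under quantile normalization the log2 value was 0.11 (limma, adjusted p = 0.735), the highest in a range from 0.00745 to 0.735.

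**Figure D1:**
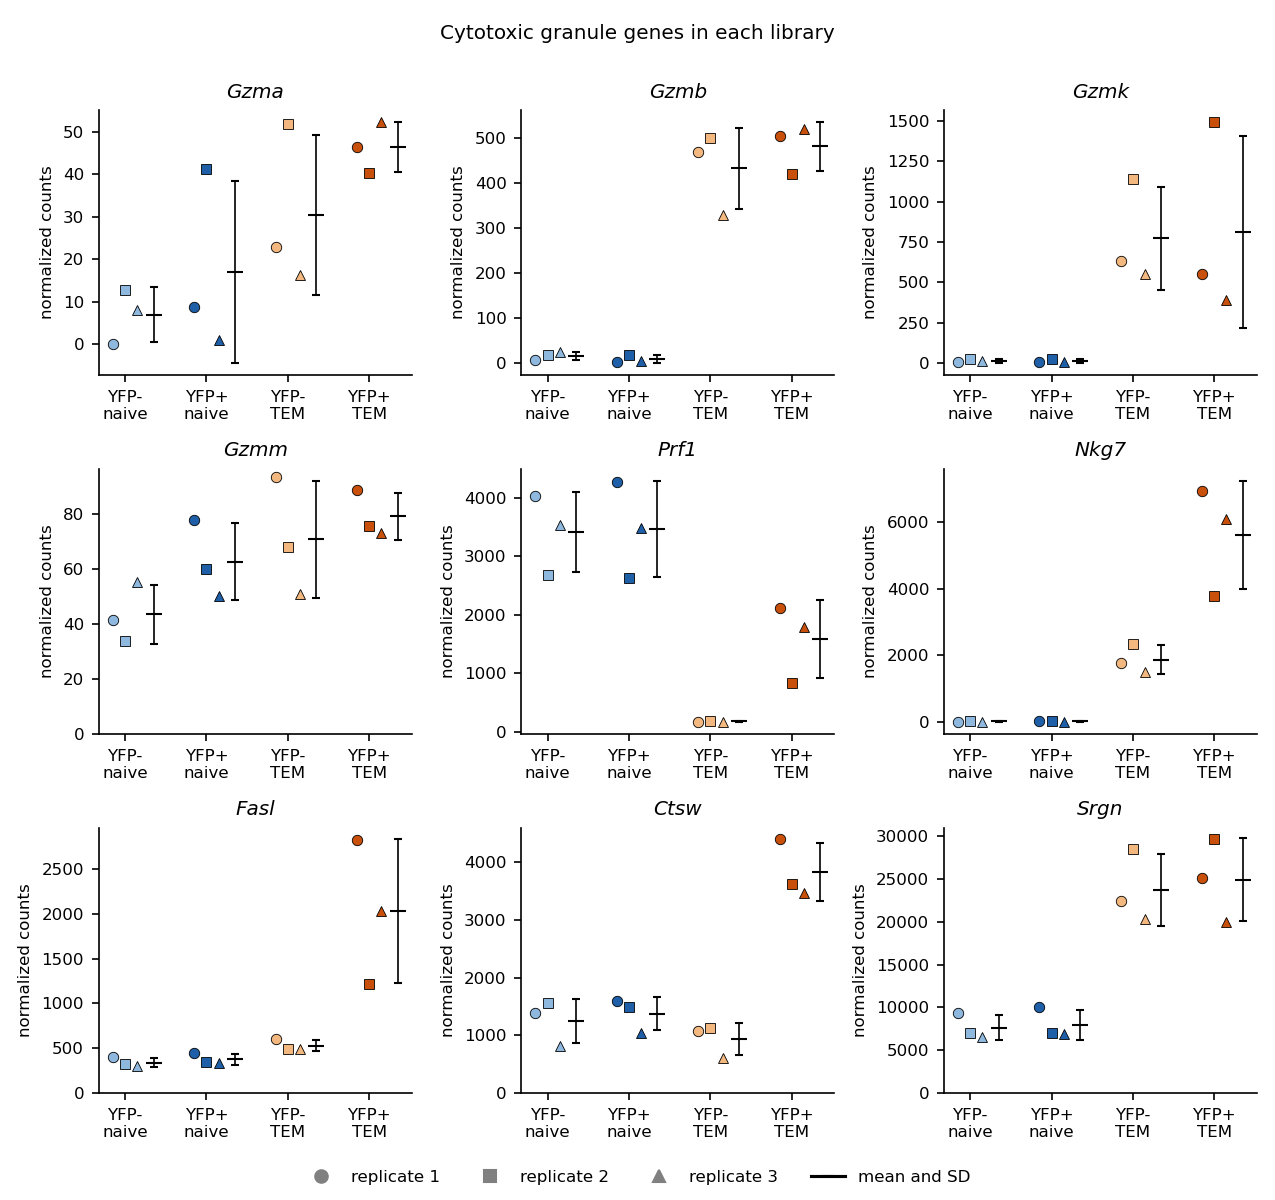
Normalized counts of the 9 genes in each of the 12 libraries, on linear axes that differ between panels, with replicate numbers as symbols and the mean and SD (n = 3) at the right of each group. Prf1 is highest in naive cells (2632 to 4279) and lowest in YFP- TEM cells (169 to 185), while Gzmb, Gzmk, Nkg7 and Srgn are higher in every TEM library than in any naive one.

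The starts of 4 of these genes show what can be read from the DNA next to the members the comparisons turn on: Prf1, Nkg7 and Fasl, whose YFP+ TEM libraries lay above the YFP- TEM ones, and Gzmb, whose TEM fractions overlapped. RefSeq gives a promoter window (250 bases before to 50 after a transcript start, on GRCm38.p6) for 8 of the 9 members, all but Ctsw, and the windows below are Prf1 at chr10:61297586-61297885 (+ strand), Nkg7 at chr7:43436888-43437187 (+ strand), Fasl at chr1:161788446-161788745 (- strand) and Gzmb at chr14:56262285-56262584 (- strand). Capitals mark matches on either strand to TGTGGT, the core bound by Runx factors, and to GGTGTGA, the core bound by T-box factors such as T-bet and Eomes.
Prf1: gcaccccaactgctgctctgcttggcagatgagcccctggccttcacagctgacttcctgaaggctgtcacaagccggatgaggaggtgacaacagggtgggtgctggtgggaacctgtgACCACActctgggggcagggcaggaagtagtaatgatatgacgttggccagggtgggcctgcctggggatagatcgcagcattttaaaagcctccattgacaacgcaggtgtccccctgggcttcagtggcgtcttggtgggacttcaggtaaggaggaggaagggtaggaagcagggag
Nkg7: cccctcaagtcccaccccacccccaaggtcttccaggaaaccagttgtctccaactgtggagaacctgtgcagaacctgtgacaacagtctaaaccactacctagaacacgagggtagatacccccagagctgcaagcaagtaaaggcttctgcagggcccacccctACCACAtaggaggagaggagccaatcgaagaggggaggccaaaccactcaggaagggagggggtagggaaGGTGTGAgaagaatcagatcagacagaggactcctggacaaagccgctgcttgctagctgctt
Fasl: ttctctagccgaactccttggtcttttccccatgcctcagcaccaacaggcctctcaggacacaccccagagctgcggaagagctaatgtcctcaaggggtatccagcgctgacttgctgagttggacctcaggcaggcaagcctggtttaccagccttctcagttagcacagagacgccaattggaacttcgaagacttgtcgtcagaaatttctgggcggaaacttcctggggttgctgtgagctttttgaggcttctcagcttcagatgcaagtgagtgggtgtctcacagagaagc
Gzmb: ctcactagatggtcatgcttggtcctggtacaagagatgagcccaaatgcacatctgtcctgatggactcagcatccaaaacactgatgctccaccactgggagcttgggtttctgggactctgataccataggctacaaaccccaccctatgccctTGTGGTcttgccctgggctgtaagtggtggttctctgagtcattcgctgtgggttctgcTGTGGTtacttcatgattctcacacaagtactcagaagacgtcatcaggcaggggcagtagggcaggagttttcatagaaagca
The Runx core was found in Prf1 (first base at -130 from the start of that window's transcript, which lies downstream of the gene start given above), in Nkg7 (-83) and 2 times in Gzmb (-93 and -34), and the T-box core in Nkg7 (-13). Fasl held neither in this window. Among the members not printed, the Runx core was found at Gzma and the T-box core at Gzmk. Gzmm and Srgn have 2 windows each: those of Gzmm held the Runx core in the first and the T-box core in the other, and those of Srgn neither at the gene start and the Runx core in the other. Of 32851 mouse promoter windows of the same length, 16.8% held the first motif and 3.98% the second. A match describes the letters and is not a measured binding site.

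The memory comparison in YFP- cells asks what distinguishes TEM from naive cells that carry no record of GM-CSF. Here 5 of the 9 members were called higher in TEM cells, Gzmb, Gzmk, Nkg7, Srgn and Fasl, and 1, Prf1, was called lower, at an adjusted p of 0.05 or less. Over all 15587 tested genes, 29.9% (4665) were called higher and 19.9% (3104) lower. The median log2 fold change was 1.64 over the 9 members and 0.05 over all tested genes. With the replicate number as a block, limma called 6 members higher, Gzma added, and 2 lower, Ctsw added, beside 5149 higher and 3951 lower genes in all. Ctsw was also called lower without YFP- naive replicate 3. Markers of other cells rose in the same comparison: 4 of 6 myeloid, 3 of 4 plasmacytoid dendritic cell, 3 of 4 analysed NK cell and 4 of 4 regulatory T cell markers were called higher. Of the B cell markers 1 was higher and 3 were lower, of the CD8 genes 1 was higher and 1 lower, of the NKT markers 1 of 3 was higher, and Trdc was lower. Siglech went from 0.384 ± 0.665 to 2681 ± 1100 normalized counts, and the myeloid sum from 388 to 987 in the naive to 5609 to 10148 in the TEM libraries. The part of such cells in the memory differences of the members was not tested. In YFP+ cells TEM against naive called 6 members higher, Gzmb, Gzmk, Nkg7, Srgn, Fasl and Ctsw, and 1 lower, again Prf1. There 24.7% of all tested genes (3849) were called higher and 16.7% (2604) lower, and the medians were 2.35 for the members and 0.03 for all tested genes. Called higher with them were 4 of 4 NK cell, 3 of 3 invariant NKT, 4 of 4 regulatory T cell, 2 of 4 plasmacytoid dendritic cell and 1 of 6 myeloid markers and Cpa3, and 1 plasmacytoid dendritic cell marker, 1 myeloid marker, 1 CD8 gene and Trdc were lower. Klrb1c went from 7.96 ± 4.06 to 1304 ± 394 normalized counts and Zbtb16 from 1.95 ± 2.61 to 1876 ± 904. The part of these cell types was likewise not tested.

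The split of calls between higher and lower genes turned under quantile normalization, to 3585 higher and 5925 lower in YFP- cells and to 3063 and 4626 in YFP+ cells. Among the members quantile normalization left 4 of the 5 increases in YFP- cells, all 6 in YFP+ cells and the decrease of Prf1 in both.

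Between YFP+ and YFP- TEM cells, the comparison of a GM-CSF history among memory cells, 3 of the 9 members were called higher in YFP+ cells, Prf1, Ctsw and Fasl, and 0 were called lower. Over all tested genes 2.3% (359) were called higher and 4.67% (728) lower. The 3 genes were called in each of the 17 alternative settings. Prf1 was on average 8.96 times, Ctsw 4.09 times and Fasl 3.84 times as high in the YFP+ libraries. The 4 granzymes and Srgn were not called, with log2 values of 0.75 for Gzma, 0.17 for Gzmb, -0.10 for Gzmk, 0.20 for Gzmm and 0.06 for Srgn (limma, adjusted p from 0.845 to 0.981). Signs of the last 4 changed with the setting. The median log2 fold change was 0.75 over the members and -0.01 over all tested genes. With the replicate number as a block, 4 members, Nkg7 added, were called higher, and 814 genes were called higher and 1055 lower, and under quantile normalization, which shifted the median by 0.07, 686 and 806. YFP- TEM and YFP+ TEM libraries enter both this comparison and a memory comparison, so the differences of a member in these are not independent.

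Between YFP+ and YFP- naive cells, 0 of the 9 members were called in limma, and the lowest unadjusted p was 0.0867, for Gzmb. Of all tested genes 0.00642% (1 gene) was called higher and 0% (0 genes) lower, while at an unadjusted p of 0.05 or less there were 388 higher and 130 lower genes. Calls on the recovered reads were 1 higher and 1 lower in edgeR and 7 higher and 5 lower in DESeq2, with 0 members among them. With the replicate number as a block limma called 2 genes higher and 4 lower. Of the more abundant members, log2 values were 0.01 (SE 0.29) for Prf1, 0.16 (SE 0.25) for Fasl, 0.17 (SE 0.27) for Ctsw and 0.06 (SE 0.19) for Srgn. Between libraries of the same replicate number Fasl was higher in YFP+ naive cells each time, by 0.16, 0.12 and 0.19, and with that number as a block it was not called (limma, adjusted p = 1). Gzma, Gzmb, Gzmk and Nkg7 had between 0 and 48.2 normalized counts in naive libraries, which limits the differences that could be found. The median log2 fold change was 0.06 over the members and 0.01 over all tested genes.

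Whether the difference by YFP status differed between TEM and naive cells was tested as an interaction. It was called for 3 of the 9 members, each with the larger YFP difference in TEM cells, and 0 members were called in the other direction. Over all tested genes 0.828% (129) were called in this direction and 2.73% (425) in the other, and the median was 1.38 over the members and -0.01 over all tested genes. The interaction was 3.04 on the log2 scale for Prf1 (SE 0.41, limma, adjusted p = 0.00297), 1.91 for Ctsw (SE 0.38, limma, adjusted p = 0.0159) and 1.71 for Fasl (SE 0.35, limma, adjusted p = 0.0191). For Nkg7 it was of similar size, 1.71, but with a larger error (SE 0.74, limma, adjusted p = 0.366), and for Gzmb it was 1.38 (SE 0.92, limma, adjusted p = 0.727). Prf1 kept its call in all 22 alternative settings. Fasl lost it without YFP- naive replicate 1 (limma, adjusted p = 0.053), without YFP- TEM replicate 3 (0.0606) and without YFP+ TEM replicate 3 (0.0513), and both Fasl and Ctsw had an adjusted p of 0.0506 without the variance trend. Over all settings the adjusted p of Fasl ranged from 0.000112 to 0.0606 and that of Ctsw from 6.3e-05 to 0.0506. The interaction was also called for all 3 invariant NKT markers, Cpa3 and 1 regulatory T cell marker in the direction of Prf1, and for 3 of 4 plasmacytoid dendritic cell and 2 of 6 myeloid markers in the other, and their part in the result was not tested. On the recovered reads, edgeR and DESeq2 each called the interaction of the same 3 members. In the pairwise comparisons, exact permutation of 3 libraries against 3 gives no p under 0.10.

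**Figure D2:**
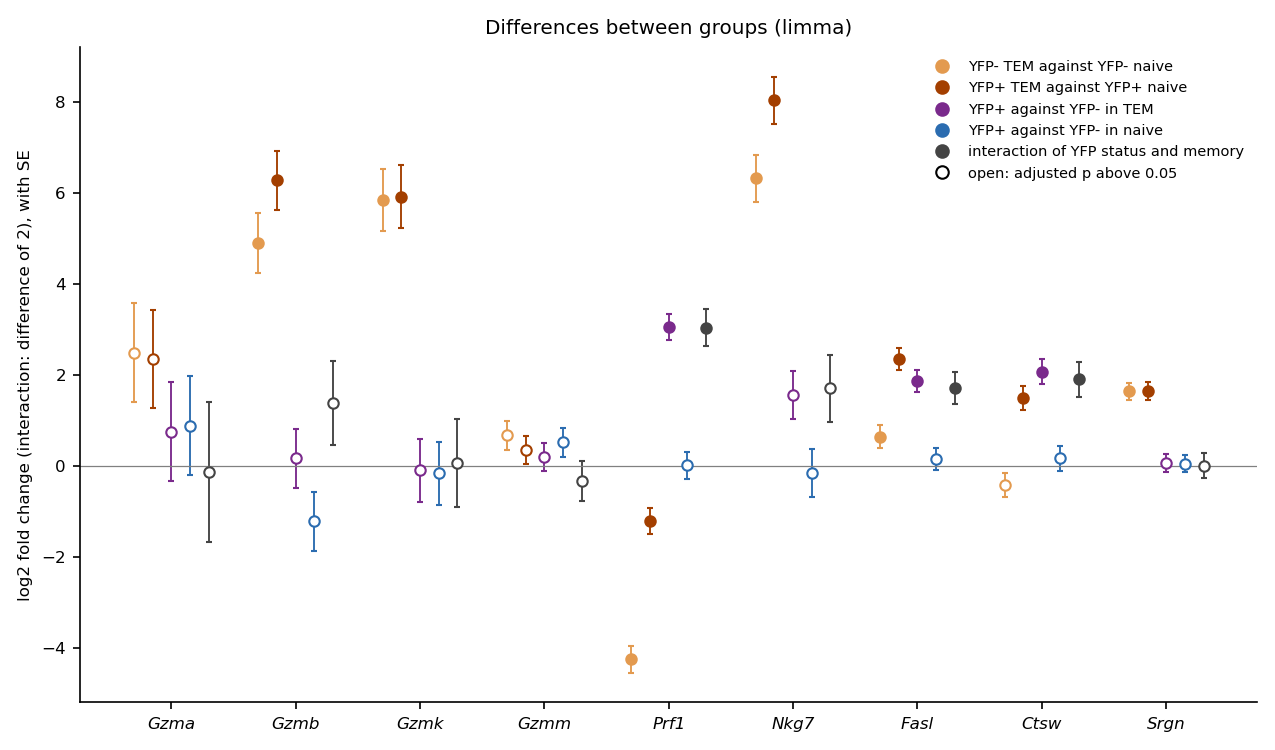
Log2 fold changes of the 9 genes with SE in the 4 comparisons, and the interaction, from limma. Filled points have an adjusted p of 0.05 or less, as for Prf1 at -4.25 with memory in YFP- cells and 3.05 between the TEM fractions, and all points of the naive comparison are open.

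Per kb of exon, the order of the members changed between cell states. In both naive groups Srgn came first (3478 ± 675 normalized counts per kb in YFP- naive cells), followed by Prf1 (1321 ± 265), Ctsw (663 ± 204) and Fasl (175 ± 27.2), each without overlap with the next. The other 5 members had at most 52.9 per kb in any naive library and could not be ranked, because neighbours overlapped. In YFP- TEM cells Srgn (10812 ± 1922 per kb) was followed by Nkg7 (2054 ± 476), then by Gzmk (557 ± 229), Ctsw (497 ± 150), Gzmb (301 ± 63.2) and Fasl (272 ± 31.4), whose neighbours overlapped. Prf1 (68.3 ± 3.18) came next, below all of these libraries, and Gzmm and Gzma were last. In YFP+ TEM cells the order per kb was Srgn (11341 ± 2215), Nkg7 (6133 ± 1775) and Ctsw (2031 ± 266), each apart from the next, then Fasl (1047 ± 415), Prf1 (612 ± 258), Gzmk (585 ± 428) and Gzmb (335 ± 37.7), whose neighbours overlapped, and Gzmm and Gzma at the end.

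The balance between the RNA of perforin and that of the granzymes also differed. Of the summed level per kb of the 4 granzymes and Prf1, Prf1 made up 90.0 to 97.8% in the naive libraries. It made up 7.02, 5.36 and 9.11% in YFP- TEM replicates 1, 2 and 3, where Gzmk and Gzmb held the largest shares, 48.7 to 61.3% and 26.0 to 35.0%. In YFP+ TEM cells Prf1 made up 48.8, 18.1 and 48.3%. The share of Prf1 was thus higher in every YFP+ than in any YFP- TEM library, with replicate 2 the lowest of the YFP+ ones. The share of Gzmb was lower in every YFP+ library (16.4 to 25.1%) and that of Gzmk overlapped, while the levels of both overlapped between the fractions. Per kb, the ratio of Prf1 to Gzmb was 0.201, 0.206 and 0.296 in the YFP- TEM libraries and 2.32, 1.11 and 1.93 in the YFP+ TEM libraries.

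**Figure D3:**
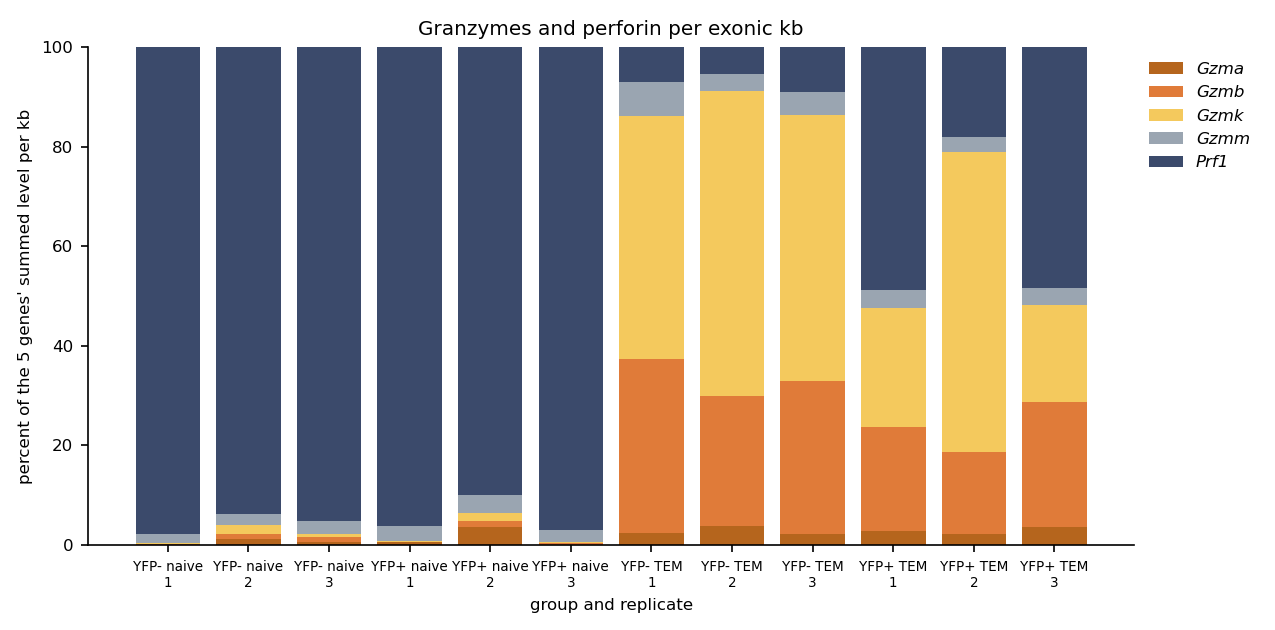
Share of each of the 4 granzymes and Prf1 in their summed level per kb of exon (percent), 1 bar per library. Prf1 fills 90.0 to 97.8% of the naive libraries, 5.36 to 9.11% of the YFP- TEM libraries and 18.1 to 48.8% of the YFP+ TEM libraries.

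TEM libraries with the same replicate number were also compared directly, as log2 differences of YFP+ minus YFP-. Prf1 was higher in the YFP+ library by 3.64, 2.16 and 3.35 in replicates 1, 2 and 3, Fasl by 2.24, 1.31 and 2.04, Nkg7 by 1.96, 0.69 and 2.02 and Ctsw by 2.03, 1.69 and 2.50. These 4 members were higher in YFP+ cells in all 3 replicate numbers, and replicate 2 gave the smallest difference of each. How many of all tested genes were higher in all 3 was not counted, so the shared sign does not set these members apart. The 4 granzymes went both ways, with Gzmb at 0.11, -0.25 and 0.66 and Gzmk at -0.19, 0.39 and -0.49.

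Markers of other lymphocytes moved with this difference. Of the 7 NK cell markers listed, 4 were analysed and all 4 were called higher in YFP+ TEM cells. Their summed level was 168, 166 and 151 normalized counts in the YFP- TEM libraries and 1505, 976 and 1815 in the YFP+ TEM libraries, with Klrb1c, which NK and NKT cells share, the most abundant (1403, 870 and 1640 in YFP+ TEM cells). Ncr1, a defining receptor of NK cells, was at 0 in all 3 YFP- TEM libraries and at 32.6 ± 25.1 in the YFP+ TEM libraries. All 3 markers of invariant NKT cells were called higher in YFP+ TEM cells, and their summed level was 519, 287 and 451 normalized counts in the YFP- and 7395, 2860 and 6602 in the YFP+ TEM libraries, with Zbtb16 or Trav11d the most abundant. Trav11 and Trav11d are near-identical segments whose reads could have been split between them. Replicate 2 was the lowest YFP+ TEM library for Prf1, Nkg7 and Fasl and for both of these marker lists. Ctsw went another way, with its lowest YFP+ TEM value in replicate 3 (3462, against 3630 in replicate 2). Without YFP+ TEM replicate 2 the log2 difference between the TEM fractions was 3.46 for Prf1, 2.19 for Fasl and 1.82 for Nkg7. For these 3 members it was the largest value among the fits without 1 library. Leaving out the lowest YFP+ library raises such a difference by arithmetic. The cells were sorted as CD4+, and the methods report a check of sort purity by flow cytometry. The part of NK or NKT cells in the YFP difference of Prf1, Fasl, Ctsw and Nkg7 was not tested.

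Further marker lists were read in the same libraries. Of 2 CD8 genes both were lower in YFP+ than in YFP- TEM cells, with a sum of 373, 187 and 293 against 1191, 686 and 1490 normalized counts, and Cd8b1 was the most abundant. Of 4 plasmacytoid dendritic cell markers 3 were lower in YFP+ TEM cells, and Siglech had 2681 ± 1100 normalized counts in YFP- and 66.8 ± 46.8 in YFP+ TEM cells. The summed level of that list was 12059, 8681 and 11171 in YFP- TEM libraries and 4791, 6116 and 4183 in YFP+ ones, with Pacsin1, which naive T cells also contained, the most abundant. Of 6 myeloid markers 2 were lower in YFP+ TEM cells, with a sum of 6494, 5609 and 10148 in YFP- and 3087, 1673 and 2464 in YFP+ libraries and Csf1r or Cd68 the most abundant. Of the same list S100a8 (0.494 ± 0.856 in YFP- and 28.7 ± 20.7 in YFP+ TEM cells) and S100a9 (1.48 ± 2.57 and 49.1 ± 37.0) lay the other way without a call, and both were at 0 in YFP- TEM replicates 1 and 3. Of 4 B cell markers 1, Cd79a, was higher in YFP+ TEM cells. The sum was 401, 378 and 487 in YFP- and 764, 293 and 778 in YFP+ TEM libraries, with Cd79b or Cd79a the most abundant. Cpa3, the only basophil and mast cell marker analysed of 4 listed, was at 0 in the YFP- TEM libraries and at 61.7, 40.4 and 79.8 in the YFP+ ones. Of the 4 regulatory T cell markers, Foxp3 was lower in YFP+ TEM cells and the others were not called. Trdc, the only gamma delta T cell marker analysed of 4 listed, and the 6 T cell markers were not called between the TEM fractions, nor was Cd44. Gzmb and Srgn are also made outside T cells, and the part of these cell types in their TEM levels was not tested.

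**Figure D4:**
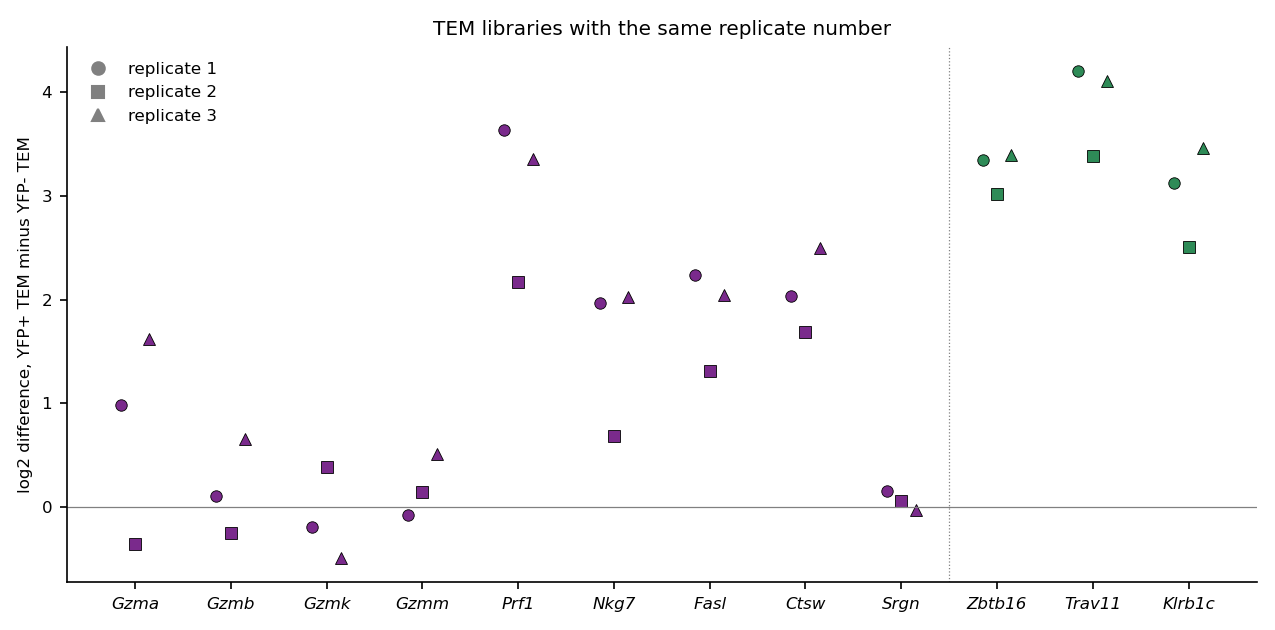
Log2 difference in log2(normalized count + 1) between the YFP+ and the YFP- TEM library of each replicate number, for the 9 genes (purple) and for Zbtb16, Trav11 and Klrb1c (green). Prf1, Nkg7, Fasl and Ctsw lie above 0 in all 3 replicate numbers, with replicate 2 lowest, as it is for the 3 markers.

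Genes that work with the members were taken from lists of their pathway. Markers of other cell types also changed in both memory comparisons and between the TEM fractions, as given above. Their part in the changes of these pathway lists was not tested. Of the genes that activate or inhibit granule proteases, 5 of 6 were tested. In YFP- cells all 5 rose with memory, Cst7, Ctsc, Serpinb6a, Serpinb6b and Serpinb9, and in YFP+ cells 4 did, all but Ctsc, where 29.9% and 24.7% of all tested genes were called higher. The median log2 value of the 5 was 0.92 and 1.78, against 0.05 and 0.03 over all tested genes. Cst7, which encodes the cystatin F that restrains the protease that activates granzymes, rose by 3.71 (SE 0.16) and 3.34 (SE 0.16) on the log2 scale in the YFP- and the YFP+ fraction (limma, adjusted p = 6.16e-09 and 1.77e-08). Ctsc, the gene of that activating protease, rose by 0.40 in YFP- cells (limma, adjusted p = 0.0312), a call lost in 4 of 6 fits without 1 library, with adjusted p of 0.106 without YFP- naive replicate 2, 0.0878 without YFP- naive replicate 3, 0.0901 without YFP- TEM replicate 1 and 0.12 without YFP- TEM replicate 3. Serpinb9, an inhibitor of granzyme B, was higher in YFP+ than in YFP- TEM cells, with 2341 ± 676 against 1287 ± 60.9 normalized counts and a log2 fold change of 0.83 (SE 0.18, limma, adjusted p = 0.0151). So was its relative Serpinb6b, by 0.97 (SE 0.21, limma, adjusted p = 0.0146). Ctsc, Cst7 and Serpinb6a had lower means in YFP+ TEM cells without a call, the median of the 5 was -0.09 against -0.01 over all tested genes, and 2.3% of all tested genes were called higher and 4.67% lower. Serpinb9 lost this call without YFP- TEM replicate 1 (0.0665), YFP- TEM replicate 3 (0.0513) or YFP+ TEM replicate 1 (0.0531), and Serpinb6b without YFP- TEM replicate 1 (0.0654), YFP- TEM replicate 2 (0.0548), YFP+ TEM replicate 1 (0.0758) or YFP+ TEM replicate 3 (0.0714). These serpins have close paralogs, and their reads could have been split between copies.

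Of 13 genes for granule secretion 12 were tested. In YFP- cells 6 rose with memory (Ap3b1, Lamp2, Snap23, Stx11, Sytl1 and Vamp8) and Rab27a fell, and in YFP+ cells 7 rose (Ap3b1, Lamp2, Lyst, Stx11, Sytl1, Unc13d and Vamp8). Over all tested genes 29.9% were called higher and 19.9% lower in YFP- cells, and 24.7% and 16.7% in YFP+ cells. The median log2 value of the 12 was 0.31 and 0.37, against 0.05 and 0.03 over all tested genes. Stx11, a syntaxin needed for granule fusion, rose most, by 4.71 (SE 0.23) and 4.55 (SE 0.23) on the log2 scale (limma, adjusted p = 1.2e-08 and 2.23e-08). Rab27a, the GTPase that docks granules at the membrane, was the only one of the 12 called between the TEM fractions, with 15126 ± 536 normalized counts in YFP+ and 11098 ± 960.4 in YFP- cells and a log2 fold change of 0.45 (SE 0.08, limma, adjusted p = 0.00321). In that comparison 2.3% of all tested genes were called higher and 4.67% lower, and the median was -0.05 over the 12 and -0.01 over all tested genes. The decrease of Rab27a with memory in YFP- cells, -0.29 (SE 0.08, limma, adjusted p = 0.0075), was not called under quantile normalization (0.161). Smaller increases were lost without single libraries, with the highest adjusted p at 0.0661 for Ap3b1, 0.0693 for Snap23 and 0.139 for Sytl1 in YFP- cells and at 0.173 for Ap3b1 and 0.112 for Lyst in YFP+ cells. In YFP- cells quantile normalization also ended the calls of Sytl1 (log2 0.10, limma, adjusted p = 0.6) and Snap23 (0.19, limma, adjusted p = 0.111), and Sytl1 was not called with TMM factors (0.0553), in edgeR (0.0563) or in the fit of the groups compared only (0.053).

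Of the 6 genes of the death ligand pathway, all tested, Tnfsf10, which encodes the death ligand TRAIL, rose with memory by 0.70 (SE 0.13) in YFP- and 1.18 (SE 0.13) in YFP+ cells (limma, adjusted p = 0.000805 and 1.7e-05). Casp8, the caspase that Fas engages, fell by 0.42 and 0.36 on the log2 scale, and Cflar, its inhibitor, fell by 0.31 in YFP- cells, a call lost in 5 of 6 fits without 1 library (limma, adjusted p up to 0.157, without YFP- TEM replicate 1). Like Fasl, Tnfsf10 was higher in YFP+ than in YFP- TEM cells, by 0.50 (SE 0.13, limma, adjusted p = 0.0383), but this call was lost in 5 of 6 fits without 1 library, with the highest adjusted p, 0.162, without YFP+ TEM replicate 3. With memory 1 of the 6 was called higher and 2 lower in YFP- cells and 1 and 1 in YFP+ cells, where 29.9% and 19.9%, and 24.7% and 16.7%, of all tested genes were. The median of the 6 was -0.12 and -0.09, against 0.05 and 0.03 over all tested genes. Of the 6 other granzymes on a list of their own, 2 were analysed and 1, Gzmc, was tested, and it was called in no comparison in limma. Gzmd, Gzme, Gzmg and Gzmn were not analysed here.

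Of 10 regulators of the cytotoxic programme 9 were tested, and the same 6 rose with memory in both fractions: Eomes, Hopx, Id2, Prdm1, Tbx21 and Zeb2. Over all tested genes 29.9% and 24.7% were called higher. The median log2 value of the 9 was 1.56 and 2.28, against 0.05 and 0.03 over all tested genes. Tbx21, the gene of T-bet, rose by 6.14 (SE 0.19) in YFP- and 6.98 (SE 0.19) in YFP+ cells (limma, adjusted p = 8.77e-10 and 2.29e-10), whereas Eomes, which drives perforin in CD8+ cells, rose by 1.10 (SE 0.17) and 0.58 (SE 0.17) (limma, adjusted p = 0.000156 and 0.0148). The Eomes call in YFP+ cells was lost without YFP+ naive replicate 3 (0.0584), without YFP+ TEM replicate 2 (0.0651) and under quantile normalization (0.554). Between the TEM fractions, where 2.3% of all tested genes were called higher and 4.67% lower and the median was 0.19 over the list and -0.01 over all, 2 of the 9 were called, both higher in YFP+ cells: Id2 by 0.96 (SE 0.15, limma, adjusted p = 0.00153) and Tbx21 by 0.68 (SE 0.19, limma, adjusted p = 0.0477). The Tbx21 call was lost in all 6 fits without 1 TEM library, with adjusted p from 0.0625 without YFP+ TEM replicate 2 to 0.217 without YFP- TEM replicate 3. Zeb2, at 1357, 1074 and 1828 in YFP- TEM and 455, 577 and 319 in YFP+ TEM libraries (normalized counts), was lower without overlap but not called (log2 -1.66, SE 0.68, limma, adjusted p = 0.218). The myeloid sum was 5609 to 10148 in YFP- and 1673 to 3087 in YFP+ TEM libraries, with S100a8 and S100a9 lying the other way. Of 4 plasmacytoid dendritic cell markers 3 were also lower in YFP+ TEM cells. Among naive libraries Zeb2 was highest in YFP+ naive replicate 2 (159), which also held the highest myeloid sum (3432). The part of such cells in the Zeb2 values was not tested. For none of the genes on these 5 lists was the naive comparison or the interaction called in limma.

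**Figure D5:**
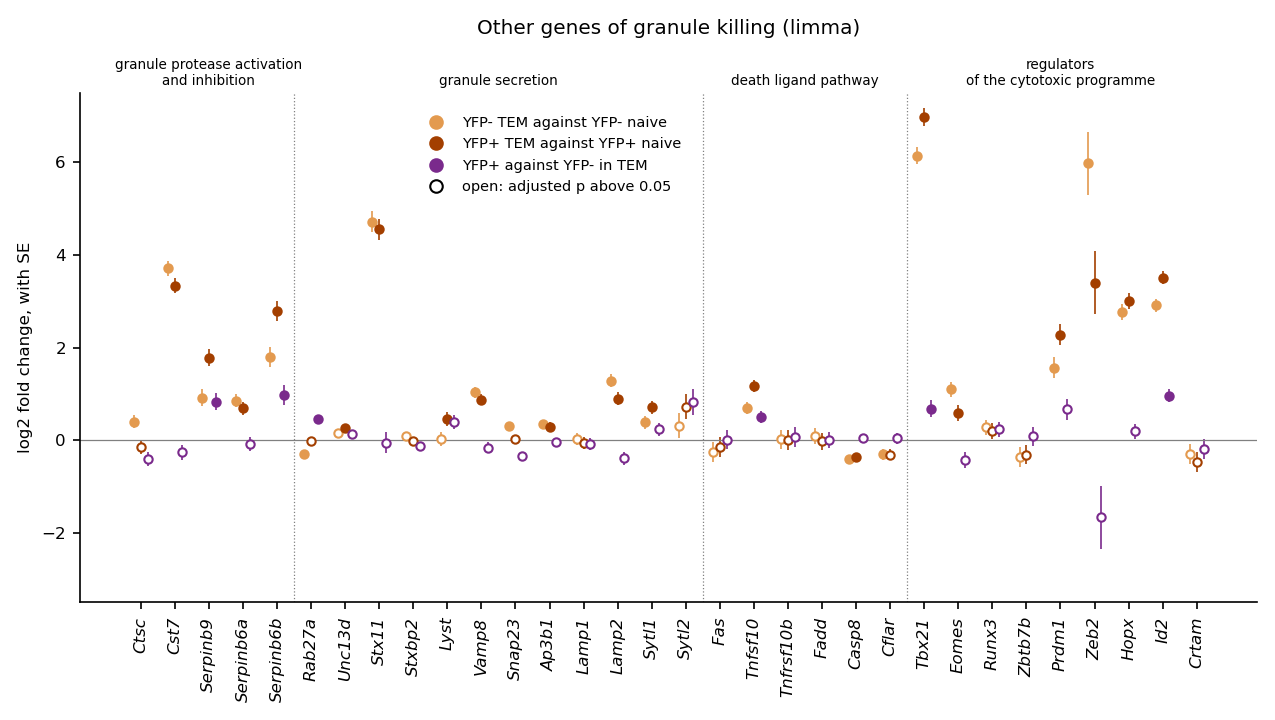
Log2 fold changes with SE (limma) of the tested genes on 4 pathway lists in both memory comparisons and between the TEM fractions, with filled points at an adjusted p of 0.05 or less. Tbx21 (6.14 and 6.98), Zeb2 (5.98 and 3.40), Stx11 (4.71 and 4.55) and Cst7 (3.71 and 3.34) are the 4 largest increases with memory in YFP- cells, and the called differences between the TEM fractions are all under 1.

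Among tested genes whose mean reached 50 normalized counts, those whose centred log2 profile over the 12 libraries was nearest to a member's were sought by root mean square difference. Nearest to Prf1 were Myo6 (0.50), Raver2 (0.57) and Satb1 (0.61), to Nkg7 Ccr2 (0.34), Mmp25 (0.51) and Cysltr1 (0.61), to Fasl F2r (0.22), Prrt1 (0.23) and Ckb (0.37), and to Ctsw Selenon (0.25), Gpnmb (0.29) and 4930486L24Rik (0.34). Nearest to Gzmb were Osbpl3 (0.56), Kif15 (0.58) and Ighg3 (0.63), to Gzmk Sema4c (0.32), Neo1 (0.40) and Glt28d2 (0.46), to Srgn Sdcbp2 (0.12), Tnfaip8 (0.14) and Ptpn11 (0.15), to Gzmm Ninj1 (0.23), Cd6 (0.25) and Vopp1 (0.25), and to Gzma Igkj1 (0.69), Hpgd (0.81) and Ptgs1 (0.91). No member was among the 3 nearest genes of another, but Gzma, whose mean lay below 50 normalized counts, was not a candidate.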

How the data were processed

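RNA of 12 libraries of sorted spleen CD4+ T cells was measured (total RNA, stranded kit). The deposited signal is normalized counts: the authors mapped reads to mm10 with DRAGEN, counted them on genes with Rsubread and divided them by DESeq2 size factors, with no versions, annotation or strand setting given in the sources used here. Whole reads were recovered from 100% of values (within 0.01). In YFP+ TEM replicate 1 a read was 1.011 normalized counts, a step close to rounding, so its recovery, used in edgeR and DESeq2, is less certain. In total 40974124 to 57822269 reads lay on genes per library. Between replicates, chi-square over its degrees of freedom was 38.7 to 86.1, above counting noise.

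Log2 of the normalized count plus 1 was modelled by 4 group means and a variance trend (limma 3.58.1 under R 4.3.3), on 8 residual degrees of freedom, for the 15587 genes that reached 5 normalized counts in 3 or more libraries. Fold changes are on this scale, which understates changes of low genes. Adjustment of p followed Benjamini and Hochberg over all tested genes, with calls at 0.05 or less. The fits were tested on simulated data. edgeR 4.0.16 and DESeq2 1.42.0 on the recovered reads, other filters, scalings, added values (0.1 and 5) and designs, and leaving out each library were alternatives.

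Named genes are the 9 members in every comparison, genes called on 5 pathway lists, the 11 lists of cell type markers reported here, and the 3 genes nearest each member. Members and lists were chosen with earlier results of these data known. Symbols and positions came from RefSeq (GRCm38.p6; 16749 genes named), exonic lengths from GENCODE M21 and promoters from RefSeq.

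Libraries of the same replicate number deviated together from their group means, with correlations over all tested genes of 0.18, 0.338 and 0.356 between TEM fractions, 0.306, 0.491 and 0.36 between naive fractions and 0.168, 0.137 and 0.232 between YFP- TEM and YFP- naive cells. The replicate number was read as pairing these comparisons, from these data and not from the labels. The main fit left it out, so its p-values ignore this pairing, and the number entered as a block only in an alternative setting.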

Additional observations from a re-analysis of the deposited data

Results flagged for a closer look

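For 3 of the 9 members the difference between YFP+ and YFP- cells was not the same in TEM and in naive cells, by limma's test of that difference itself. The log2 interaction was 3.04 for Prf1 (adjusted p = 0.00297), 1.91 for Ctsw (adjusted p = 0.0159) and 1.71 for Fasl (adjusted p = 0.0191), all from limma. Over all tested genes the interaction was called for 0.828% in this direction and 2.73% in the other. Prf1 kept the call in every setting, whereas Ctsw and Fasl lost it without the variance trend (limma, adjusted p = 0.0506 each) and Fasl also without YFP- naive replicate 1 (0.053), YFP- TEM replicate 3 (0.0606) or YFP+ TEM replicate 3 (0.0513). All 3 invariant NKT markers were called in the same direction of the interaction, and their part in the result was not tested. In TEM cells the log2 differences behind them were 3.05, 2.07 and 1.86, and in naive cells 0.01, 0.17 and 0.16. The same contrast read the other way says that the memory difference of each gene depended on YFP status: Prf1 was lower in TEM than in naive cells by more in the YFP- fraction (-4.25) than in the YFP+ fraction (-1.21), and Ctsw had opposite signs, -0.41, which was not called, and 1.49, which was.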

How the results depend on the processing

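How the results depend on the processing was read from 45 member results under 810 alternative fits. Of these 738 kept sign and call, 14 lost a call (3 results), 11 gained a call (5 results) and 47 turned the sign of a log2 value that was not called (16 results). For 46 results of other named genes, 718 of 782 fits kept the call and 64 lost it. Prf1 kept its calls in all 17 alternatives of both memory comparisons and of the TEM comparison and in all 22 of the interaction, and Gzmb, Gzmk, Nkg7 and Srgn kept their memory calls in all 17. The cause of the changes below was not tested.

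Lost member calls (adjusted p, limma unless named) were, for Fasl with memory in YFP- cells, 0.735 under quantile normalization, 0.0562 with TMM factors, 0.0773 without the variance trend and 0.062 in edgeR, and 0.0745 to 0.14 in 5 of 6 fits without 1 library. In the interaction without the trend, Ctsw and Fasl had 0.0506, and Fasl had 0.0513 to 0.0606 without single libraries. Nkg7 between the TEM fractions gained a call in 4 of 17 alternatives, 0.0206 under quantile normalization, 0.0446 with the block, 0.0146 in edgeR and 0.00536 in the fit of the groups compared only.

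Signs turned only for member differences that were not called. Gzmm with memory was -0.73 (YFP-) and -0.55 (YFP+) under quantile normalization. Between the TEM fractions Gzmk was 0.0399 under quantile normalization, 0.11 in edgeR and 0.0717 in DESeq2, and fits without 1 library ranged from -0.65 to 0.31 for Gzmk, -0.0134 to 0.29 for Gzmb, -0.016 to 0.42 for Gzmm and -0.0715 to 0.21 for Srgn. Between the naive fractions Nkg7 was 0.0098 in edgeR and 0.027 in DESeq2, and fits without 1 library ranged from -0.77 to 0.42 for Nkg7, -0.11 to 0.35 for Ctsw, -0.27 to 2.02 for Gzma, -0.80 to 0.45 for Gzmk, -0.15 to 0.20 for Prf1 and -0.12 to 0.21 for Srgn. In the interaction Gzma was 0.10 with an added value of 5 and 0.35 under quantile normalization, Gzmm 0.18 and Srgn -0.0364 under quantile normalization, and fits without 1 library ranged from -1.27 to 1.02 for Gzma, -0.54 to 0.70 for Gzmk and -0.14 to 0.19 for Srgn.

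Counts of calls in all tested genes moved by over 1.5 times as follows. With memory in YFP- cells, 2480 genes were higher by a log2 value of 2 or more, and lower genes numbered 5925 under quantile normalization, 819 at 1 or more and 270 at 2 or more. Among members, 3 were higher at 2 or more, and 2 were lower with the block and in some fits without 1 library (1 to 2). In YFP+ cells higher genes numbered 2538 at 1 or more and 1762 at 2 or more, lower genes 4626 under quantile normalization, 781 at 1 or more and 258 at 2 or more, and 0 members were lower at 2 or more. Between the TEM fractions higher genes numbered 686 under quantile normalization, 814 with the block, 569 in DESeq2, 203 at 1 or more, 113 at 2 or more and 175 to 394 without 1 library, and lower genes 430 at 2 or more and 358 to 600 without 1 library. Between the naive fractions higher genes numbered 2 with an added value of 0.1, 2 with the block, 7 in DESeq2, 0 in the fit of the groups compared only, 0 at 2 or more and 0 to 1 without 1 library, and lower genes 1 with an added value of 0.1, 1 with TMM factors, 4 with the block, 1 in edgeR and 5 in DESeq2. For the interaction, calls toward YFP+ TEM numbered 80 with an added value of 0.1, 223 under quantile normalization, 293 with the block, 205 in DESeq2, 63 at 2 or more and 57 to 155 without 1 library, and calls the other way 193 to 421 without 1 library. Of the members, 1 was called without the trend and 1 at 2 or more.

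With the replicate number as a block, Gzma (0.0428) and Ctsw (0.0209) with memory in YFP- cells and Nkg7 (0.0446) between the TEM fractions gained a call (limma, adjusted p), and the block changed no other member's call. In YFP+ memory cells same-numbered libraries correlated at 0.204, -0.02 and 0.056, which does not pair that comparison.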

Other observations

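Prf1 and the granzymes Gzmb and Gzmk changed in opposite directions with memory. Prf1 came next after Srgn per kb in both naive groups, where the 4 granzymes and Nkg7 had at most 52.9 normalized counts per kb in any library. In YFP- TEM cells Prf1 was the lowest of the members other than Gzmm and Gzma, with Gzmb and Gzmk at 301 ± 63.2 and 557 ± 229 per kb. In YFP+ TEM cells Prf1 (612 ± 258 per kb) lay in the range of Gzmk (585 ± 428) and Gzmb (335 ± 37.7), with overlap. Each of the 6 naive libraries held more Prf1 than any TEM library.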
